A study of Homo sapiens with 8 samples.

Results

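The genes described here encode 5 matrix metalloproteinases (MMP1, MMP2, MMP3, MMP9 and MMP14), 3 of their tissue inhibitors (TIMP1, TIMP2 and TIMP3), the urokinase plasminogen activator (PLAU) and its receptor (PLAUR). They were taken by symbol, through the RefSeq name of each NCBI Gene ID, and all 10 had a row among the 18555 rows of the count table. RNA-seq was done on 3 siXBP1 libraries, from cells given an XBP1-specific siRNA, and 3 siNC libraries, from cells given the Allstar control siRNA. Both groups were of the human liver cancer line labelled HepG2 and both received 30 nM thapsigargin for 3 hours, 2 days after transfection. Thapsigargin causes stress in the endoplasmic reticulum (ER) by emptying its calcium store, and XBP1 is a transcription factor of the unfolded protein response to such stress. The comparison asks what lower XBP1 does to transcripts under ER stress. No RNA-seq library without thapsigargin was analysed here, and the labels do not say whether libraries came from separate cultures, so p-values measure a spread that may be technical.

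Matrix metalloproteinases are zinc enzymes that cut collagens, gelatin and other proteins of the extracellular matrix. Most are secreted as inactive precursors, and TIMP proteins block their active site. Urokinase, bound to its receptor on the cell surface, turns plasminogen into plasmin, which degrades fibrin and can activate some metalloproteinase precursors. In liver tumours this system is known for its part in invasion and in remodelling of the surrounding tissue.

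The 6 libraries held 38209972 to 38890070 counts in total, and 75.8% to 80.5% of the gene counts from 1 to 40 were even numbers, so low counts may stand for fewer fragments. XBP1 had 11158, 11587 and 10554 counts in the siXBP1 libraries and 21455, 19495 and 19240 in the siNC libraries. Its level in siXBP1 was 55.7% of that in siNC (log2 fold change -0.84, SE 0.08, edgeR adjusted p = 0.0331). Hepatocyte markers were near absent: 5 of 15 had no row, 6 of the other 10 stayed under 10 counts in every library, and the list summed to 2.28 to 3.87 CPM (counts scaled to the library total) in siXBP1 and 2.29 to 2.73 CPM in siNC. Genes listed as markers of other epithelial lines, 6 of 11 at 1 CPM or more, summed to 6861 to 8574 CPM in siXBP1 and 7120 to 9171 CPM in siNC. These 6 were KRT17 (3364 CPM on average), KRT7 (1473 CPM), KRT14, KRT8 (1211 CPM), VIM (1176 CPM) and KRT18 (702 CPM). KRT8, VIM and KRT18 are not particular to such lines. In contrast, KRT5, KRT19, CDH1, EPCAM and TP63 averaged under 1 CPM. The list thus went both ways, and its sum does not tell which line was used. The HepG2 name is therefore used as a label. The libraries were spread along a first principal component with 59.1% of the variance, which placed siXBP1 replicate 3 (score -0.648) and siNC replicate 1 (score 0.643) at opposite ends and the other 4 between -0.290 and 0.239. Results that rest on these 2 libraries are given with and without them.

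In siXBP1 the TIMP3 transcript had the most separated levels among the well-covered genes, at 212 ± 13.9 CPM in siXBP1 and 175 ± 12.6 CPM in siNC (SD, n = 3 each). PLAUR had a higher estimate with overlapping groups, while TIMP1, TIMP2 and MMP2 had estimates near 0. MMP1, MMP3, MMP9, MMP14 and PLAU stayed under 100 counts in every library. All 10 genes passed the filter on low counts and 0 passed edgeR's test at an adjusted p of 0.05, where 0.00697% of the 14337 genes tested passed (1 gene, XBP1). At an unadjusted p under 0.05 it was 1 of the 10, TIMP3, against 3.61% of all genes tested. DESeq2 gave an adjusted p for 7 of the 10 genes and 0 passed. Of all 18555 rows, with or without an adjusted p, 0.0862% passed in DESeq2 (0.0377% as higher). TIMP3 alone of the 10 genes had an unadjusted p under 0.05 in DESeq2, against 3.13% of all 18555 rows. Estimates were above 0 for 5 genes and below 0 for 5, with a median log2 fold change of 0.02, against 0.01 over all genes tested.

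Upstream sequence was available for 5 of the 10 genes (PLAU, MMP14, PLAUR, TIMP3 and TIMP1) in RefSeq, build GRCh38.p14. It is shown for TIMP3 and PLAUR, the genes with higher estimates, and for TIMP1, which is similar in function to TIMP3 and had an estimate near 0. Each run covers the 250 bases before the annotated start, 5′ to 3′ on the gene's strand, in the regions chr22:32801455-32801704 (plus strand) for TIMP3, chr19:43670170-43670419 (minus strand) for PLAUR and chrX:47582186-47582435 (plus strand) for TIMP1. Capitals mark matches to the motifs searched.
TIMP3: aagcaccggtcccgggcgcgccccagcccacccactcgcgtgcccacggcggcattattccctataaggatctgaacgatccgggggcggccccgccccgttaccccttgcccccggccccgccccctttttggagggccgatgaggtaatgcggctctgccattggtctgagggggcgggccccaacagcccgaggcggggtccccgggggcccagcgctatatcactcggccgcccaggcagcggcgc
PLAUR: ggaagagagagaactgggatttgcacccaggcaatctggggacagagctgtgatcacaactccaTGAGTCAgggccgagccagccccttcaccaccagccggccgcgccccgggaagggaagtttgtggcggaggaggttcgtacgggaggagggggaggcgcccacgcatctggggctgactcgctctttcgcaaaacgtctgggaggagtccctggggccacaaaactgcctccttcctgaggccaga
TIMP1: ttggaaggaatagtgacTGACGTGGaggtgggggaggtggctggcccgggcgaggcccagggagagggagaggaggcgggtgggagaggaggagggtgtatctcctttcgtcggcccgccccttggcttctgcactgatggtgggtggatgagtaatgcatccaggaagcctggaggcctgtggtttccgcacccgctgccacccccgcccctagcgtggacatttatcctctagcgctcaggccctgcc

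The motifs were searched on both strands of the 250 bases. The AP-1 motif TGANTCA had a match in PLAUR, starting 186 bases before the start, and occurs in 6.57% of 35116 RefSeq windows of the same length. The unfolded protein response element TGACGTGG, a motif that XBP1 can bind, had a match in TIMP1, starting 233 bases before the start, and occurs in 0.612% of windows. The cAMP response element TGACGTCA (1.65% of windows), the ER stress response element, CCAAT followed at a fixed distance by CCACG (0.0740%), and the NF-kB consensus (5.21%) had no match in the windows of these 5 genes. The TIMP3 window held none of the 5 motifs. A match is a description of letters, and binding data were not analysed here.

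TIMP3 (gene ID 7078, chromosome 22, 32801705 to 32863041) encodes an inhibitor that binds to the matrix and blocks metalloproteinases and several ADAM proteases. It had 227, 209 and 200 CPM in the siXBP1 libraries, against 189, 165 and 171 CPM in the siNC libraries. Each siXBP1 library lay above each siNC library, and the closest pair was siXBP1 replicate 3 and siNC replicate 1, the libraries at the 2 ends of the first component. On the log2 scale TIMP3 differed by 0.28 (SE 0.09, 95% interval 0.07 to 0.49), which is 1.21-fold with an interval of 1.05 to 1.40. It did not pass (edgeR adjusted p = 0.9998, unadjusted p = 0.0148, rank 156 of 14337 genes). Its estimate stayed between 0.23 and 0.33 with each library left out in turn. With the first component score as a covariate it was 0.31 (SE 0.06, edgeR adjusted p = 0.00377), and without both end libraries 0.38 (SE 0.09, adjusted p = 0.00517), so that TIMP3 passed as higher in these 2 fits. Of all genes tested 1.2% passed in the covariate fit (0.711% as higher) and 4.87% without both end libraries (1.45% as higher). The end libraries held the lowest siXBP1 and the highest siNC value of TIMP3, so leaving them out had to widen the difference. Both fits use a component computed from these same libraries, so their adjusted p-values may be too small. The gene lies within the annotated span of SYN3, which had 2 to 8 counts per library.

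Of the 10 fibroblast markers 7 were tested, with 0 passing, 5 estimates above and 2 below 0, and overlapping groups for each. COL3A1 (0.11) and LUM (0.15) had estimates above 0, and COL1A1 (-0.19) and PDGFRB (-0.12) below. The 9 genes with a row summed to 349 to 356 CPM in siXBP1 and 325 to 342 CPM in siNC, with 6 of the 9 at 1 CPM or more. These ranges do not overlap, but how often sums of other genes separate the groups was not computed. Most of the sum came from LUM (136 CPM on average) and COL3A1 (129 CPM), whose groups each overlapped. COL1A2 stayed at or under 3 counts in every library and PDGFRA had no row. The part of this list in the TIMP3, TIMP1, TIMP2 and MMP2 values was not tested.

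TIMP1 (gene ID 7076, chromosome X, 47582436 to 47586789) encodes a secreted inhibitor of most soluble metalloproteinases. It had 242, 228 and 175 CPM in the siXBP1 libraries, against 261, 183 and 210 CPM in the siNC libraries. The groups overlapped over nearly their whole range, and the highest and the lowest value belonged to the end libraries of the first component. TIMP1 had a log2 fold change of -0.02 (SE 0.15, 95% interval -0.37 to 0.33). In all 6 libraries its CPM increased with the score on that component, as for 1.77% of all genes tested, whichever siRNA the cells had received. Its sign turned without siXBP1 replicate 3 (0.10), without siNC replicate 1 (0.13), with the covariate (0.076) and without both end libraries (0.26, edgeR adjusted p = 0.0703). SYN1, whose annotated span contains TIMP1, had at most 2 counts in any library.

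TIMP2 (gene ID 7077, chromosome 17, 78852977 to 78925387) encodes an inhibitor that also takes part in the activation of the MMP2 precursor by MMP14 at the cell surface. It had 504, 467 and 474 CPM in the siXBP1 libraries, against 469, 456 and 455 CPM in the siNC libraries. Of the siNC libraries replicate 1 reached into the range of siXBP1, an overlap that was absent with TMM scaling. For TIMP2 the log2 fold change was 0.07 (SE 0.08), with a 95% interval of -0.10 to 0.24. The TIMP3 estimate of 0.28 lies above that interval, but the TIMP3 interval of 0.07 to 0.49 overlaps it. The difference between the 2 genes was not tested. The TIMP2 estimate lay between 0.04 and 0.10 in all 17 alternative fits.

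**Figure D1:**
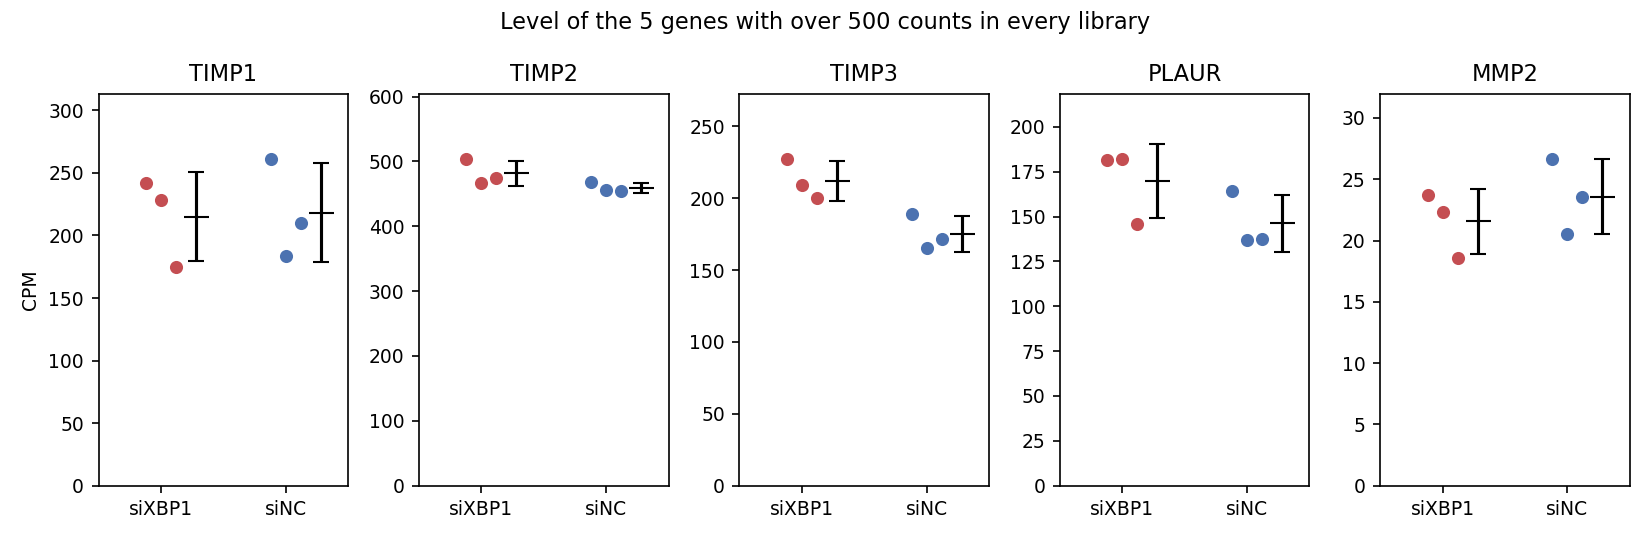
Level in CPM (axis from 0) of TIMP1, TIMP2, TIMP3, PLAUR and MMP2, with 1 point per library, siXBP1 in red and siNC in blue, and mean ± SD of 3 libraries in black. TIMP3 is the gene whose 3 siXBP1 points (200 to 227 CPM) all lie above its 3 siNC points (165 to 189 CPM).

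The urokinase receptor gene PLAUR (gene ID 5329, chromosome 19, 43646095 to 43670169) encodes a lipid-anchored surface protein that holds urokinase at the cell membrane. It had 182, 182 and 146 CPM in the siXBP1 libraries, against 164, 137 and 137 CPM in the siNC libraries. Within siXBP1 replicate 3 was low and within siNC replicate 1 was high, and these 2 libraries made the groups overlap. PLAUR had a log2 fold change of 0.22 (SE 0.12, 95% interval -0.05 to 0.49, edgeR adjusted p = 0.9998). With the covariate it was 0.28 (SE 0.06, adjusted p = 0.0133) and without both end libraries 0.41 (SE 0.09, adjusted p = 0.00253), so PLAUR passed as higher in both fits. Of all genes tested, 1.2% passed with the covariate and 4.87% without both end libraries. Leaving out the 2 libraries that made the groups overlap had to separate them. The component comes from these same libraries, so adjusted p-values of both fits may be too small. Leaving out 1 library at a time gave 0.15 to 0.31 with 0 passes.

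Urokinase itself (PLAU, gene ID 5328, chromosome 10, 73908832 to 73917494) was sparsely counted in all libraries. It had 30, 24 and 23 counts in the siXBP1 libraries, against 14, 41 and 38 counts in the siNC libraries. The siXBP1 values lay within the siNC range. Its log2 fold change of -0.26 (SE 0.47) has a 95% interval of -1.32 to 0.80, which takes in a 2-fold decrease and leaves out a 2-fold increase. With 1 library left out it lay between -0.61 (without siNC replicate 1) and -0.017 (without siNC replicate 2), and it was -0.091 without siNC replicate 3. C10orf55, which overlaps PLAU in the annotation, had at most 2 counts.

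MMP2 (gene ID 4313, chromosome 16, 55478830 to 55506691), which encodes gelatinase A, an enzyme that cuts gelatin and basement membrane collagen, was the 1 of the 5 metalloproteinase genes with over 500 counts in every library. It had 23.8, 22.4 and 18.6 CPM in the siXBP1 libraries, against 26.7, 20.5 and 23.5 CPM in the siNC libraries. As for TIMP1, the end libraries of the first component held the lowest and the highest value. MMP2 had a log2 fold change of -0.13 (SE 0.14, 95% interval -0.45 to 0.20), and without both end libraries it was 0.070. With 1 library left out it lay between -0.23 (without siNC replicate 2) and -0.03 (without siNC replicate 1). Together with TIMP1 and TIMP3, MMP2 kept the order of the component score within both groups, so 3 of the 10 genes did, against 12.1% of all genes tested. These genes are among the 11528 from which the component was computed.

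**Figure D2:**
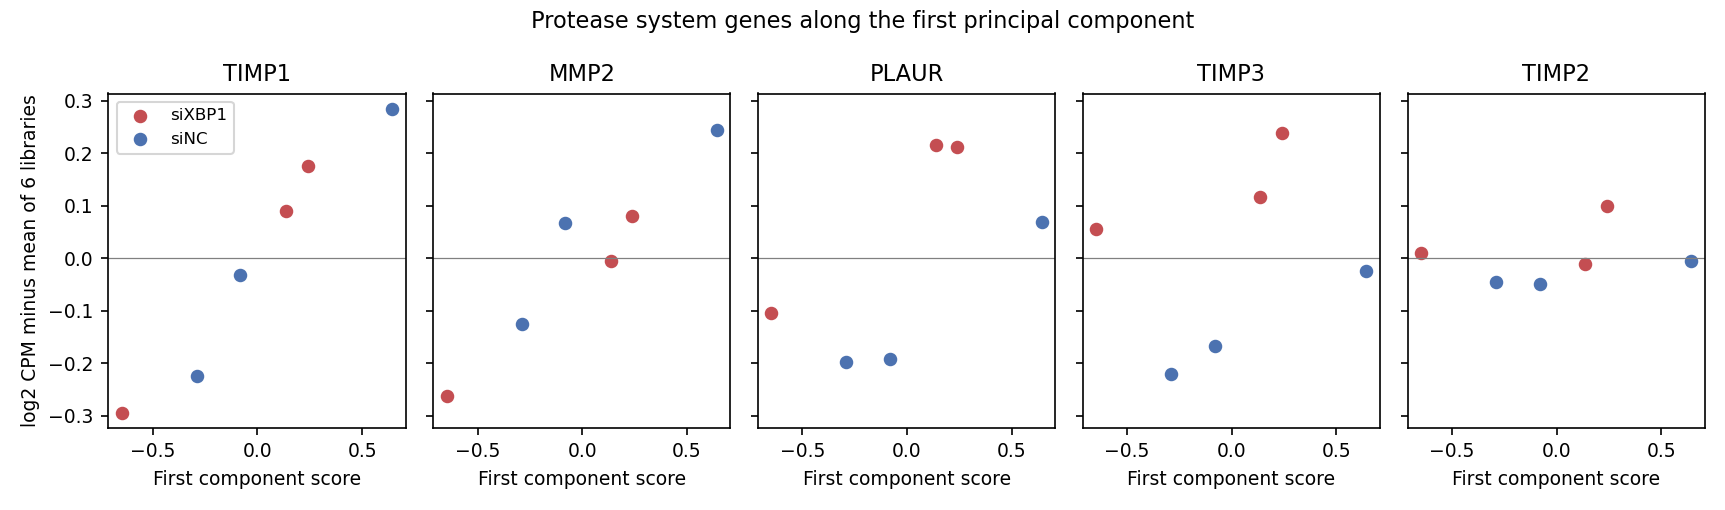
Log2 CPM of 5 genes, each minus its mean over the 6 libraries, against the score on the first principal component, with siXBP1 libraries in red and siNC libraries in blue. TIMP1 climbs with the score through both groups alike, while the 3 siXBP1 points of TIMP3 lie above its 3 siNC points.

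The other 4 metalloproteinase genes were counted at 4 to 66 reads per library. MMP3 (gene ID 4314, chromosome 11, 102835801 to 102843609) encodes stromelysin, which cuts many matrix proteins and activates other metalloproteinase precursors. It had 12, 16 and 12 counts in the siXBP1 libraries, against 6, 8 and 4 counts in the siNC libraries. All of these counts are even numbers, so they may stand for fewer fragments, and with halved counts MMP3 failed the filter. The groups did not overlap for MMP3 and TIMP3, 2 of the 10 genes, both higher in siXBP1, against 8.75% of all genes tested (5.01% higher and 3.74% lower in siXBP1). MMP3 reached 10 counts in 3 siXBP1 libraries and 0 siNC libraries, so it passed the filter through siXBP1 alone and had to differ there. Its log2 fold change of 1.15 (SE 0.55) has a 95% interval of -0.09 to 2.39 and did not pass (edgeR adjusted p = 0.9998, unadjusted p = 0.0659).

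MMP1 (gene ID 4312, chromosome 11, 102789919 to 102798160) encodes interstitial collagenase, which cleaves fibrillar collagen. It had 34, 34 and 66 counts in the siXBP1 libraries, against 32, 44 and 25 counts in the siNC libraries. A single library, siXBP1 replicate 3, stood above the rest. The log2 fold change was 0.42 (SE 0.41) with all libraries, 0.0092 without siXBP1 replicate 3, 0.24 without siNC replicate 3, 0.65 without siNC replicate 2 and -0.012 without both end libraries. The annotated pseudogene WTAPP1 overlaps both MMP1 and MMP3 and has no row among those analysed here.

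MMP9 (gene ID 4318, chromosome 20, 46008908 to 46016561) encodes gelatinase B, which leukocytes store and release. It had 7, 4 and 12 counts in the siXBP1 libraries, against 24, 8 and 13 counts in the siNC libraries. The groups overlapped, and the log2 fold change of -0.94 (SE 0.63) ranged from -1.43 without siXBP1 replicate 3 to -0.44 without siNC replicate 1. Leukocyte markers with a row numbered 8 of 12 and summed to 41.1 to 44.9 CPM in siXBP1 and 39.1 to 46.4 CPM in siNC, of which CD68 made up 41.5 CPM in siXBP1 and 40.5 CPM in siNC on average. Of these 4 were tested, with 0 passing and 2 estimates above and 2 below 0. The groups did not overlap for 1 of the 4, CD14, against 8.75% of all genes tested. It had 0, 8 and 10 counts in siXBP1 and 19, 12 and 12 in siNC. S100A9, which was not tested, had 0, 2 and 0 counts in siXBP1 and 16, 4 and 8 in siNC. Both were chosen after their values were seen, and the groups of the other markers with a row overlapped. The part of the leukocyte markers in the MMP9 values was not tested.

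MMP14 (gene ID 4323, chromosome 14, 22836585 to 22847758) encodes a membrane-bound metalloproteinase that activates the MMP2 precursor. It had 10, 24 and 6 counts in the siXBP1 libraries, against 16, 17 and 32 counts in the siNC libraries. The groups overlapped. For MMP14 the log2 fold change of -0.68 (SE 0.60) ranged from -1.42 without siXBP1 replicate 2 to -0.30 without siNC replicate 3.

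**Figure D3:**
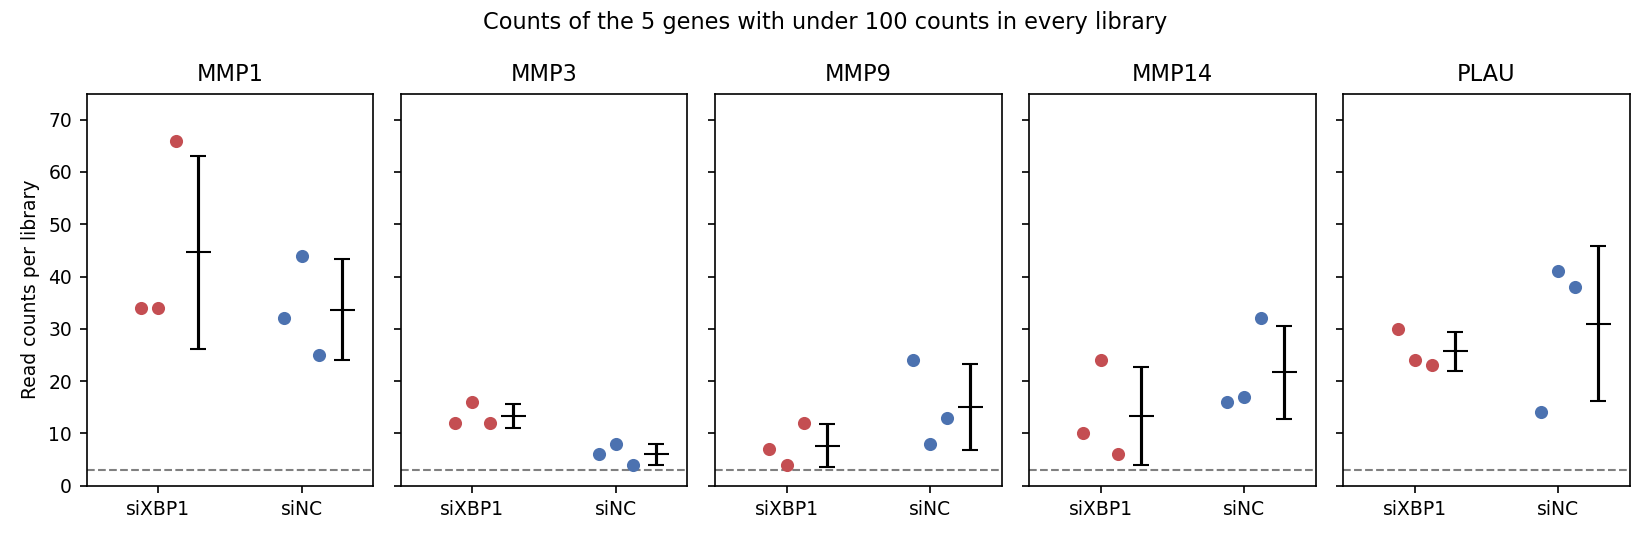
Read counts per library of MMP1, MMP3, MMP9, MMP14 and PLAU, with 1 point per library, siXBP1 in red and siNC in blue, mean ± SD of 3 libraries in black and a dashed line at the floor of 3 counts. The 3 siXBP1 points of MMP3 (12 to 16 counts) lie above its siNC points (4 to 8 counts), and the groups of the other 4 genes overlap.

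For TIMP1, TIMP2, TIMP3, PLAUR and MMP2 all 95% intervals lay within -0.45 and 0.49 on the log2 scale, so a 2-fold change in either direction falls outside them. For MMP1, MMP3, MMP9, MMP14 and PLAU the intervals took in a 2-fold change in at least 1 direction. In the other direction they left it out, upwards for MMP9, MMP14 and PLAU and downwards for MMP1 and MMP3.

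**Figure D4:**
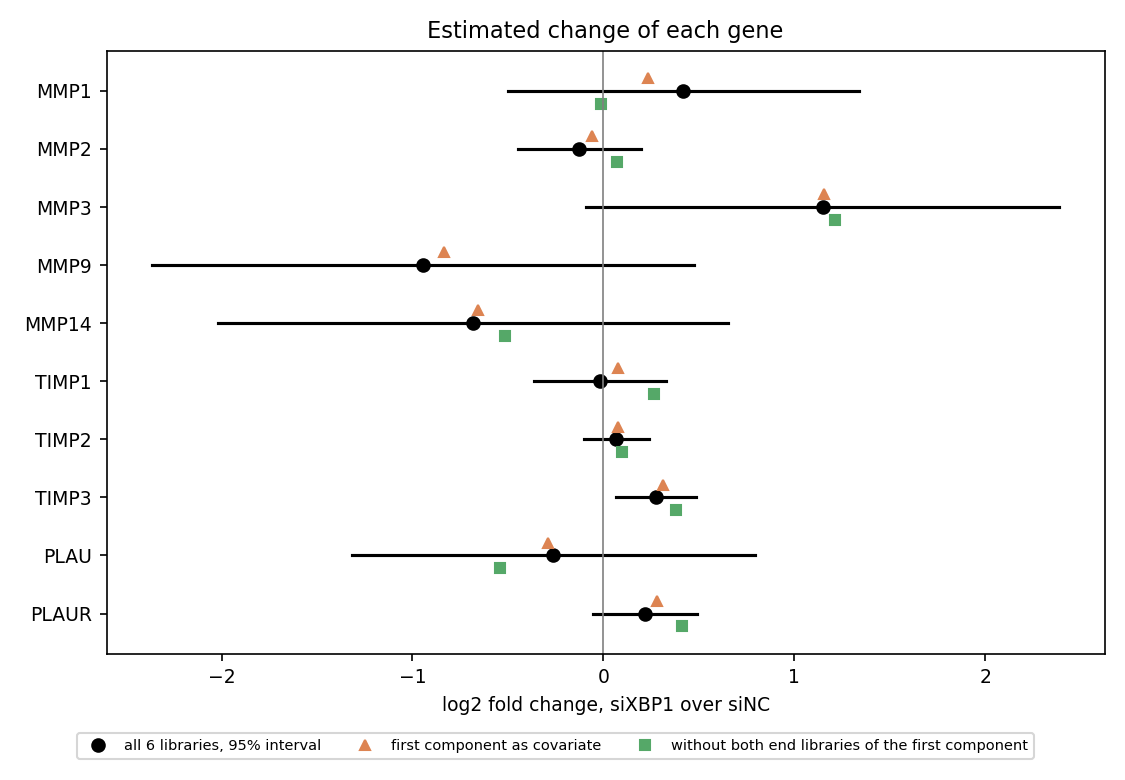
Log2 fold change (siXBP1 over siNC) of the 10 genes in edgeR's fit of all 6 libraries, with 95% intervals as black lines, beside the estimates with the first component as a covariate (orange) and without both end libraries (green; MMP9 was not tested in that fit). TIMP3 is the gene whose interval, 0.07 to 0.49, lies wholly on 1 side of 0.

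Ratios within a library do not depend on how libraries are scaled. TIMP3 made up 23.4%, 23.1% and 23.6% of the summed TIMP1, TIMP2 and TIMP3 CPM in the siXBP1 libraries, against 20.6%, 20.5% and 20.5% in the siNC libraries. The 3 values of each group lay within 0.5 percentage points of each other and the groups were apart. The mean was 23.4% ± 0.236 in siXBP1 and 20.5% ± 0.0461 in siNC (SD, n = 3 each). TIMP3 amounted to 45.1%, 44.8% and 42.3% of the TIMP2 CPM in siXBP1 and 40.4%, 36.2% and 37.7% in siNC, again without overlap. Against the TIMP1 CPM it was 93.9%, 91.7% and 115% in siXBP1 and 72.5%, 90.0% and 81.8% in siNC. There the groups were barely apart, with 91.7% and 90.0% as the closest values. These shares restate the TIMP3 levels given above on a scale within each library, and they were given no test because the genes were chosen with results of these data known.

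The 5 metalloproteinase transcripts, 88.1% to 93.6% of them MMP2 in every library, summed to 25.4, 24.4 and 21.1 CPM in siXBP1 and 28.7, 22.5 and 25.4 CPM in siNC. Set against the summed TIMP CPM, this was 2.61%, 2.70% and 2.49% in siXBP1 and 3.12%, 2.80% and 3.04% in siNC. The groups did not overlap in this ratio, although they overlapped in both sums. The gap was narrow, from 2.70% in siXBP1 replicate 2 to 2.80% in siNC replicate 2. TIMP3 is part of the TIMP sum, so the ratio partly restates the TIMP3 levels. It was given no test, and how often ratios of other genes separate the groups was not computed. PLAUR counts per PLAU count were 233, 294 and 242 in siXBP1 and 457, 130 and 139 in siNC. The siXBP1 values lay inside the siNC range. Transcript lengths were not used, so these ratios serve to compare libraries and do not give relative molecule numbers of different genes.

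**Figure D5:**
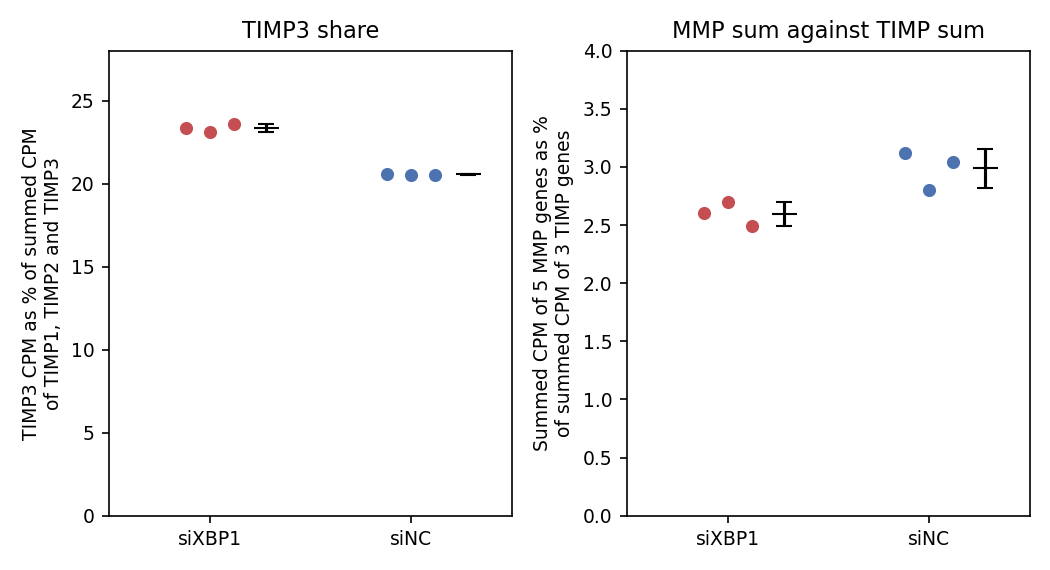
Left, TIMP3 CPM as a percentage of the summed CPM of TIMP1, TIMP2 and TIMP3. Right, the summed CPM of the 5 metalloproteinase genes as a percentage of that TIMP sum, each with 1 point per library, siXBP1 in red, siNC in blue and mean ± SD of 3 libraries in black. The siXBP1 points lie above the siNC points on the left (23.1% to 23.6% and 20.5% to 20.6%) and below them on the right (2.49% to 2.70% and 2.80% to 3.12%).

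Further genes of the matrix protease system were followed in 6 lists with 117 genes, of which 107 had a row and 89 were tested. In edgeR's test 0 of the 89 passed, against 0.00697% of all genes tested. At an unadjusted p under 0.05 it was 3 of the 89, against 3.61% of all genes tested. The groups did not overlap for 9 of the 89, against 8.75% of all genes tested. Of 18 other metalloproteinases, 13 had a row and 10 were tested, with 4 estimates above and 6 below 0 (median log2 fold change -0.01). The membrane-bound MMP15 had 42.0 ± 6.47 CPM in siXBP1 and 42.2 ± 1.60 CPM in siNC, and MMP17 had 11.9 ± 2.43 CPM in siXBP1 and 14.8 ± 3.56 CPM in siNC (SD, n = 3 each).

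Of 20 other genes of the plasminogen system, 15 were tested, with 8 estimates above and 7 below 0 (median 0.02). Plasminogen itself (PLG) had 0 counts in the 3 siXBP1 libraries and 2, 0 and 0 in the siNC libraries. The tissue-type activator gene PLAT had 22.5 ± 1.55 CPM in siXBP1 and 21.2 ± 2.25 CPM in siNC. SERPINE2, a serpin that inhibits urokinase, had 298 ± 12.1 CPM in siXBP1 and 261 ± 18.2 CPM in siNC without overlap. These 3 genes were chosen after their values were seen. The plasminogen receptor genes ENO1 (log2 fold change -0.09, SE 0.09) and ANXA2 (-0.10, SE 0.09), which also serve glycolysis and membrane organisation, had estimates below 0.

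Of 17 other inhibitors and inducers of metalloproteinases, 14 were tested, with 5 estimates above and 9 below 0 (median -0.09). BSG, a surface protein that induces metalloproteinases in neighbouring cells, had an estimate of -0.10 (SE 0.12) on the log2 scale, and its ligand PPIA an estimate of -0.05 (SE 0.10). Among 20 ADAM and ADAMTS genes tested of 30, 14 estimates lay above and 6 below 0 (median 0.07), with ADAM9 at 0.14 (SE 0.14) and ADAM15 at 0.05 (SE 0.12). Both are membrane proteases of the ADAM family. Of 16 lysosomal proteases and related enzymes, 14 were tested, with 8 estimates above and 6 below 0 (median 0.03), CTSD at -0.01 (SE 0.13) and CTSL at 0.03 (SE 0.10).

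AP-1, ETS and NF-kB factors, which bind promoters of several metalloproteinase and urokinase genes, had 14 of 17 estimates above 0 and a median log2 fold change of 0.16, against 52.8% of estimates above 0 and a median of 0.01 over all genes tested. That median was 0.082 without siNC replicate 2, 0.090 without siXBP1 replicate 1 and 0.27 without both end libraries. The list passed edgeR's test at 0 genes. ETS2 had 239 ± 7.74 CPM in siXBP1 and 201 ± 4.37 CPM in siNC without overlap (log2 fold change 0.25, SE 0.08), and NFKB2 had 285 ± 31.0 CPM in siXBP1 and 270 ± 25.5 CPM in siNC. With the first component as a covariate, 1.2% of all genes tested passed edgeR's test (172 genes). In that fit 2 of the 10 genes described here (TIMP3 and PLAUR) and 7 of the 89 genes of the lists passed, all as higher in siXBP1. The 7 were SERPINE2 (0.23, edgeR adjusted p = 0.0451), THBS1 (0.26, 0.0283), ATF3 (0.47, 0.000133), ETS2 (0.26, 0.0179), FOSL1 (0.38, 0.00408), JUN (0.34, 0.00603) and RELB (0.29, 0.0362), named for passing in that fit and so after their values were seen. Because the component comes from these same libraries and its score is taken as known, adjusted p-values of that fit may be too small.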

How the data were processed

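The authors deposited whole-number read counts per NCBI Gene ID, not normalized. Per the submitters' processing notes, hg38, STAR 2.5.2a and featureCounts 1.5.0 were used. No source used here gives the strand setting or annotation, so reads of overlapping genes on opposite strands may not have been separated. RefSeq names (GRCh38.p14) matched 18526 of 18555 IDs, and the other 29 held 0.00349% of counts. The 2 ChIP-seq samples were not analysed here. Groups came from sample titles. Counts were filtered with filterByExpr, scaled with TMM and tested with edgeR 4.0.16 (R 4.3.3), quasi-likelihood, two-sided, group as the only term, Benjamini-Hochberg over 14337 genes, threshold 0.05. The SE is the absolute log2 fold change over the square root of F. The floor is 3 counts (0.0771 to 0.0785 CPM) and covers counting error only. Principal components used log2 CPM (prior count 0.5) of the 11528 genes averaging 100 counts or more. No 2 replicates agreed within sampling noise (chi-square per degree of freedom 9.37 to 54.7). The procedure was tested on simulated data. Alternatives used DESeq2 1.42.0 and limma 3.58.1 among others. Named genes are the 10 genes, XBP1 and, per protease or factor list without a passing gene, the 2 with the highest mean CPM. Marker genes are named where they bear on the label or a result, and other genes are said to be chosen after their values were seen. The genes, lists and alternatives were chosen with earlier results of these data known.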

Additional observations from a re-analysis of the deposited data

How the results depend on the processing

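Of the 10 genes, 0 passed in 15 alternatives, and TIMP3 and PLAUR passed with the first component as a covariate and without both end libraries (2 genes each time). For both genes the end libraries held the lowest siXBP1 and the highest siNC value, so leaving them out had to widen the difference. Over all genes, 1 passed, against 0 with upper-quartile factors or at an adjusted p under 0.01, 16 with DESeq2, 172 with the covariate, 702 without both end libraries and 0 to 1 with 1 library left out. Genes of the wider lists that passed numbered 0, but 7 with the covariate and 8 without both end libraries. The log2 fold change of XBP1 was -0.85 with upper-quartile factors (edgeR adjusted p = 0.0546) and -0.88 to -0.80 with 1 library left out. It missed the threshold without siXBP1 replicate 1 (0.475), siXBP1 replicate 2 (0.284), siNC replicate 2 (0.175) or siNC replicate 3 (0.213). The sign turned without both end libraries for MMP1 (-0.012), MMP2 (0.070) and TIMP1 (0.26), and for TIMP1 also with the covariate (0.076). With 1 library left out TIMP1 lay between -0.14 and 0.13, above 0 without siXBP1 replicate 3 (0.096) or siNC replicate 1 (0.13). For TIMP1 and MMP2 too, the end libraries held the lowest siXBP1 and the highest siNC value, so leaving them out had to raise the estimate. What set these libraries apart was not tested. Correlations of deviations were 0.596, -0.359 and 0.425 between same-numbered libraries and from -0.748 to 0.646 between libraries of different numbers. With 3 libraries per group these values do not settle whether libraries were paired. With the replicate block 1 gene passed among all genes and 0 of the 10, with XBP1 at -0.84. A floor of 10 counts left 7 of 10 genes above it in every library, against 10 at 3 counts. With 1 CPM required in 3 libraries, 5 of the 10 genes were tested, and with halved counts 7, without MMP3, MMP9 and MMP14. MMP1, MMP3, MMP9, MMP14 and PLAU had under 100 counts in every library, and no detection limit was computed for them. Among medians of the other lists, that of other metalloproteinases was 0.18 without siNC replicate 2, that of the plasminogen system -0.060 without siXBP1 replicate 1 and -0.049 without siNC replicate 2, and that of lysosomal proteases -0.062 without siNC replicate 2.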
